A study of Mus musculus with 20 samples.

Results

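Cryab, 6 further small heat shock protein genes (Hspb1, Hspb2, Hspb3, Hspb6, Hspb7 and Hspb8) and the co-chaperone gene Bag3 were followed in plantaris muscle of 20 old male C57BL/6J mice. They were taken by gene name and account for 8 of the 22660 rows of the count table, and all 8 passed the filter on low counts in each of 5 comparisons. The labels give the age as 2 years. Mechanical overload (MOV) was induced in both hindlimbs by cutting away part of the soleus and gastrocnemius, which leaves the plantaris to carry the load, and sham mice had the skin opened only. Each surgery was combined with vehicle or with D + Q, which gives 4 groups of 5 different mice. D + Q was dasatinib (5 mg/kg), a tyrosine kinase inhibitor, with quercetin (50 mg/kg), a plant flavonoid, given together by gavage as a senolytic, a treatment meant to remove senescent cells. Gavage was on days 7 and 10 and the muscle was collected on day 14. For sham mice the sources differ on the last gavage, which 1 of them puts on day 14. Only old mice were studied, none carried a transgene, and RNA came from whole muscle. Fewer cells of a type and less RNA per cell therefore cannot be told apart.

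Small heat shock proteins share the alpha-crystallin domain, form oligomers, and hold unfolding proteins in a state from which ATP-dependent chaperones can refold them. Striated muscle is rich in them, and several bind desmin, titin, actin or filamin at the Z-disc when fibers are under mechanical or heat stress. Bag3 bridges Hspb8 to Hsc70 (Hspa8) and the ubiquitin ligase CHIP (Stub1), and this complex sends damaged filamin C (Flnc) to autophagy in a pathway known as chaperone-assisted selective autophagy. Many of these genes are targets of Hsf1, which binds heat shock elements, repeats of GAA and its complement TTC.

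In GRCm39 with the GENCODE annotation, all 8 are protein-coding genes. Cryab lies at chr9:50651859-50668567 (plus strand), Hspb2 at chr9:50662378-50663858 (minus), Hspb1 at chr5:135916760-135918417 (plus) and Hspb8 at chr5:116546409-116561084 (minus). Hspb3 lies at chr13:113799432-113800212 (minus), Hspb6 at chr7:30251603-30256218 (plus), Bag3 at chr7:128125283-128148705 (plus) and Hspb7 at chr4:141148090-141152625 (plus). Cryab and Hspb2 are head to head, with 329 bases between the Hspb2 start and that of the transcript Cryab-201. Other annotated Cryab transcripts start further upstream and run across Hspb2, so that 757 bases, or 62.1% of the exon sequence of Hspb2, also belong to exons of Cryab on the opposite strand. Whether the libraries kept strand is not stated in the sources used here, and reads of those bases cannot be told apart without it.

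RefSeq promoter windows (GRCm38.p6, 250 bases before to 50 after the annotated start) were found for 6 of the 8 genes, in 7 windows because Hspb6 has a pair. The windows were searched on both strands for the facing repeats GAANNTTC and TTCNNGAA, each its own reverse complement. At least 1 of these motifs was present in 5 of the 7 windows, those of 5 genes, and in 15.1% of all 32851 windows. Every match in these genes was GAANNTTC, which 7.86% of all windows hold. The stretches with a match are shown because 4 of the 5 genes with a match carry the same 8 letters, GAAGTTTC. With its reverse complement it is found in 1.21% of all windows, or in 398 of the 2582 that hold GAANNTTC. These letters were picked after the matches were read, so the shares are not a test. Capitals mark the match, and each stretch is written 5′ to 3′ on the strand of its gene.
Hspb1, chr5:135887791-135887820, plus strand: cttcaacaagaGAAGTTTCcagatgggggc
Hspb1, chr5:135887811-135887840, plus strand: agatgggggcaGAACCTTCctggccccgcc
Hspb6, chr7:30553170-30553199, plus strand: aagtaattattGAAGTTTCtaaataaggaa
Hspb8, chr5:116422844-116422873, minus strand: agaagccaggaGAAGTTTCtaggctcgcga
Bag3, chr7:128523603-128523632, plus strand: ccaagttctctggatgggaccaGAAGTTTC
Hspb3, chr13:113663882-113663911, minus strand: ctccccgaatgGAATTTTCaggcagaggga
Counted from the annotated start as base 1, the GAAGTTTC of Hspb1 spans bases -117 to -110 and that of Hspb6 bases -120 to -113, whereas that of Hspb8 spans bases 3 to 10 and that of Bag3 bases 43 to 50. The Hspb3 match lies at bases -224 to -217. The Hspb7 window held neither motif. These matches describe the letters of the windows and not binding.

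Total counts per mouse ranged from 17887532 to 26234518. Levels are given as CPM, counts relative to the library total scaled by TMM factors over the 20 mice. Group differences are log2 fold changes ± SE from edgeR's quasi-likelihood test, scaled within the mice compared, with Benjamini-Hochberg adjustment over all genes tested. A gene was called where its adjusted p was under 0.05. The labelled tissue matched its markers, since 6 of 6 skeletal muscle genes were present in every group and their summed level was 108788 CPM or more in each sham mouse and 55714 CPM or more in each MOV mouse. The lowest count of any of the 8 genes in a mouse was 249, for Hspb3, whose spread between mice therefore holds more counting error than that of the others.

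In sham muscle Cryab was the most abundant of the 8 genes per length of the canonical transcript. The order depends on these lengths, since in CPM Hspb6 was above Cryab (800 ± 133 against 632 ± 140 with vehicle). The level of Cryab was 374 ± 83.0 CPM per kb (SD, n = 5) with vehicle and 323 ± 34.1 CPM per kb with D + Q, which was 25.5% ± 2.29 and 24.3% ± 0.875 of the sum over the 8 genes. Hspb6, Hspb1, Hspb7 and Hspb8 followed in vehicle sham muscle at 263 ± 43.8, 238 ± 36.7, 226 ± 60.3 and 211 ± 19.2 CPM per kb, where neighbors in that order differed by less than their SD. Hspb2 (66.7 ± 4.96), Bag3 (54.9 ± 5.35) and Hspb3 (22.8 ± 3.04 CPM per kb) were well below them. In MOV muscle the order differed, and Hspb7 led with 854 ± 333 CPM per kb with vehicle and 542 ± 102 with D + Q. Hspb1 was next at 761 ± 593 and 439 ± 84.6, and Cryab after it at 714 ± 454 and 353 ± 54.9 CPM per kb. With vehicle the order of Hspb1 and Cryab rested on vehicle MOV mouse 5, described below. Without that mouse (n = 4) Hspb1 was at 459 ± 122 CPM over 0.916 kb and Cryab at 885 ± 307 CPM over 1.69 kb. Per kb this puts Cryab above Hspb1. As shares of the sum over the 8 genes in each mouse, Hspb7, Hspb1 and Cryab did not overlap with D + Q. Hspb7 was at 25.7% to 28.7%, Hspb1 at 20.1% to 23.7% and Cryab at 16.6% to 19.6%, so the order held in every D + Q MOV mouse. In vehicle MOV muscle the shares overlapped, at 22.7% to 31.8%, 17.3% to 31.2% and 17.3% to 25.6%. The sum over the 8 genes was 1456 ± 207 and 1331 ± 153 CPM per kb in vehicle and D + Q sham muscle, and 3143 ± 1572 and 1955 ± 293 in vehicle and D + Q MOV muscle. In vehicle MOV muscle it ranged from 1993 to 5767, with mouse 5 the highest.

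**Figure D1:**
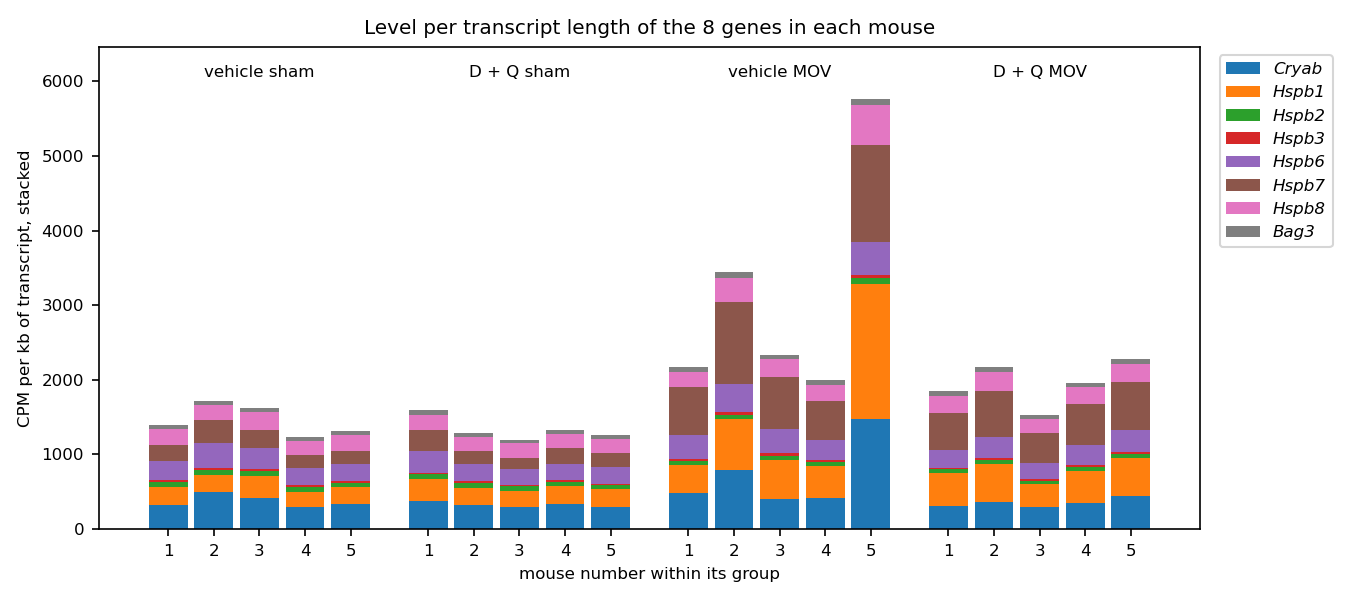
Level of the 8 genes in each of the 20 mice, as stacked CPM per kb of the canonical transcript, with mouse numbers within each group on the x axis. Vehicle MOV mouse 5 reaches 5767 CPM per kb, while sham mice lie between 1195 and 1717 and the D + Q MOV mice between 1527 and 2277.

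As shares of the sum, those of Hspb7 and Hspb1 were higher in MOV than in sham muscle in both treatments, whereas in CPM per kb the group means of 7 of the 8 genes, all but Hspb2, were higher. The share of Hspb7 was 15.3% ± 1.96 in vehicle sham and 28.0% ± 3.64 in vehicle MOV muscle, and 15.0% ± 2.07 and 27.6% ± 1.24 in the D + Q groups (SD, n = 5 each). The share of Hspb2 was 4.62% ± 0.382 and 4.65% ± 0.827 in the sham groups and 2.21% ± 0.458 and 2.55% ± 0.256 in the MOV groups.

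Vehicle MOV mouse 5 had the highest level of its group in all 8 genes. For Cryab it had 2495 CPM, against 684 to 1338 in the other 4 mice, which is 3.29 times their median. Hspb1 was at 3.78, Hspb8 at 2.30, Hspb7 at 1.95 and Hspb2 at 1.68 times that median, and Hspb3, Hspb6 and Bag3 between 1.35 and 1.39 times. Of 15700 genes ranked by this ratio, with 0.5 CPM added to both levels, 9 (Cryab included) were at or above Cryab, 7 at or above Hspb1 and 46 at or above Hspb8. This library did not stand apart in general, since in 0.898% of genes it lay above its group by a gap of more than 0.71 of the group's range, within the 0.318% to 1.74% found over the 20 mice. Its summed slow fiber markers were the lowest of its group (611 CPM against 954 to 1638). Its summed skeletal muscle fiber markers were the highest (71129 CPM against 58872 to 70014). Its macrophage (440 against 227 to 689 CPM) and regenerating fiber markers (393 against 392 to 890 CPM) lay inside the range of the others. So did its fast fiber, smooth muscle, fibroblast and cardiac markers. The part of those cell types in its levels was not tested. Results that rest on this mouse are therefore given with and without it.

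**Figure D2:**
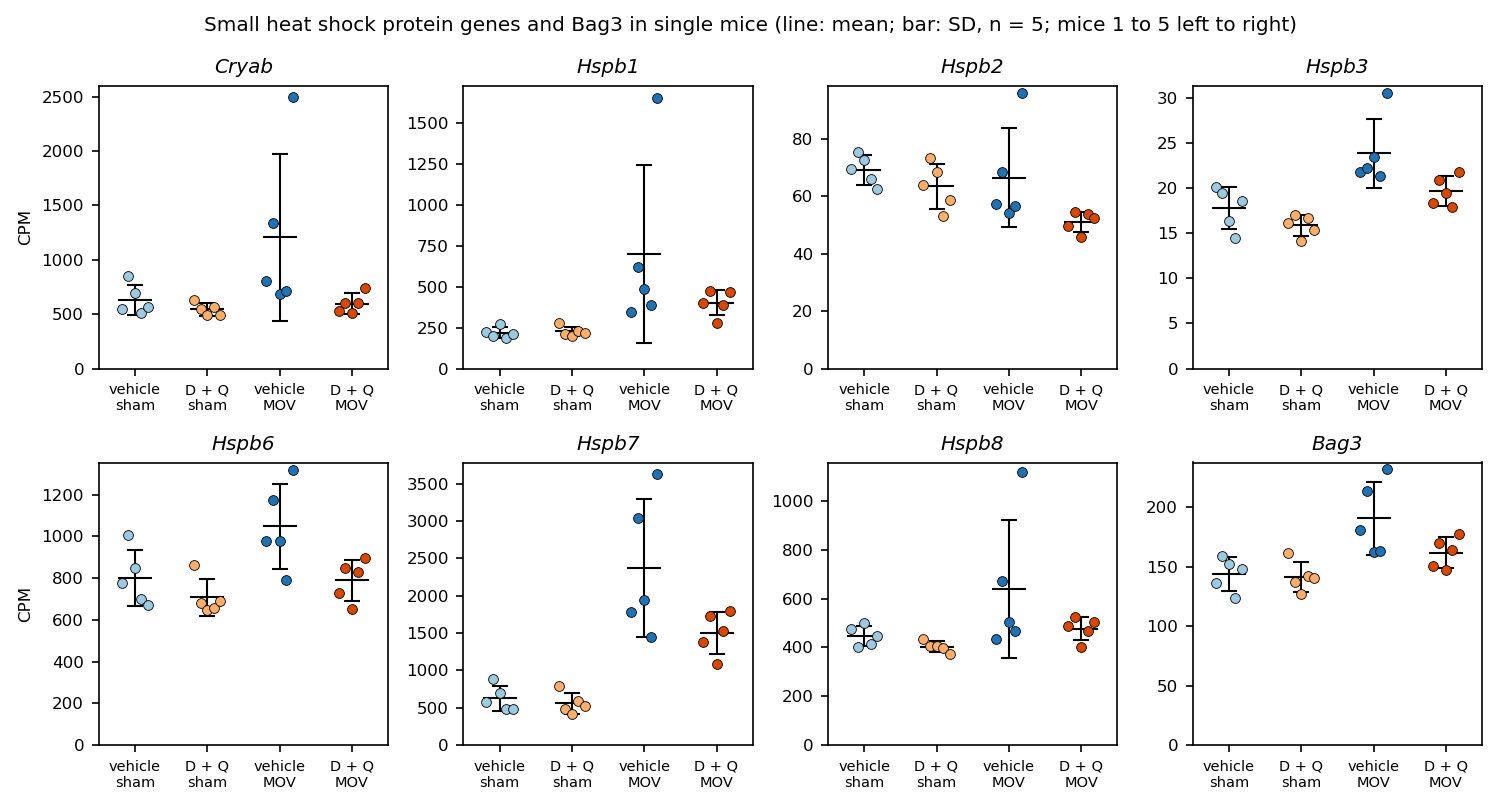
CPM of each gene in single mice by group, with the mean as a line and the SD as a bar (n = 5) and mice 1 to 5 from left to right. Each panel has its own axis from 0, and the rightmost vehicle MOV point, mouse 5, is the highest of its group in all 8 panels.

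The comparison of vehicle MOV with vehicle sham muscle shows how overload moved these genes without the drugs. Hspb7, Hspb1, Hspb3, Bag3 and Hspb6 rose, Cryab and Hspb8 did not pass the test, and Hspb2 stayed near its sham level. This makes 5 of 8 genes called by edgeR, all higher, where 60.5% of all tested genes were called in this comparison and 30.7% were called higher. The median log2 fold change of the 8 was 0.48, beside -0.02 over all 14601 genes tested. In 4 of the 8 every MOV mouse lay above every sham mouse, as it did in 23.8% of all genes. Without vehicle MOV mouse 5, 4 of the 8 were called, beside 8153 of 14124 genes tested.

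Hspb7, also called cardiovascular heat shock protein, binds filamin C and is found mainly in heart and skeletal muscle. Its level in vehicle sham mice 1 to 5 was 579, 882, 694, 485 and 487 CPM, and in vehicle MOV mice 1781, 3042, 1942, 1447 and 3622 CPM. The lowest MOV mouse was well above the highest sham mouse. Overload gave a log2 fold change of 1.93 ± 0.28 (fold 3.8, adjusted p = 0.000163), and 1.74 ± 0.24 without vehicle MOV mouse 5 (adjusted p = 0.000164). The D + Q sham mice had 788, 478, 421, 591 and 526 CPM, and the D + Q MOV mice 1380.2, 1723, 1087, 1526 and 1791 CPM. Again no mouse of the MOV group reached down to the sham range. With D + Q it was 1.46 ± 0.19 (fold 2.75, adjusted p = 7.29e-05).

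Hspb1 encodes Hsp27 (Hsp25 in mice), a phosphorylated chaperone that associates with actin filaments. Vehicle sham mice had 221, 200.2, 274, 185 and 212 CPM and vehicle MOV mice 344, 619.7, 483, 390.0 and 1649.8 CPM. The groups did not overlap. The log2 fold change of 1.68 ± 0.44 (fold 3.20, adjusted p = 0.00947) was 1.10 ± 0.17 without vehicle MOV mouse 5 (adjusted p = 0.000194), so the call held and the size depended on this mouse. With D + Q the sham mice had 276, 209.8, 197, 229.8 and 219 CPM and the MOV mice 400.5, 470.2, 281, 390.3 and 469 CPM. These groups did not overlap either, although the lowest MOV mouse was close to the highest sham mouse. With D + Q it was 0.87 ± 0.14 (fold 1.83, adjusted p = 0.000215).

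Cryab encodes alpha B-crystallin, a desmin-binding chaperone whose mutations cause myofibrillar myopathy. The vehicle sham mice had 545, 847, 698, 507 and 562 CPM, and the vehicle MOV mice 808, 1338, 684, 711 and 2495 CPM. All 5 MOV mice were above the sham median, but only mice 2 and 5 were above every sham mouse. Its log2 fold change was 0.94 ± 0.38 (95% interval 0.08 to 1.80, fold 1.92) and did not pass at an adjusted p of 0.0579. Without vehicle MOV mouse 5 it was 0.51 ± 0.22 (adjusted p = 0.0696). The gene sat close to the threshold, since it passed with vehicle MOV mouse 1 (adjusted p = 0.0451), 3 (0.0303) or 4 (0.0466) left out, and also in DESeq2 (adjusted p = 0.0462). In D + Q sham mice its level was 631, 548, 491, 562 and 493 CPM, and in D + Q MOV mice 530.5, 606, 506, 599.5 and 744 CPM. These groups overlapped over most of their range, with a log2 fold change of 0.17 ± 0.10 (95% interval -0.04 to 0.38, adjusted p = 0.145).

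Hspb2 (MKBP), the head-to-head neighbor of Cryab, binds the myotonic dystrophy kinase and forms complexes with Hspb3. It had 69.7, 75.3, 72.7, 66.1 and 62.4 CPM in vehicle sham and 57.5, 68.6, 54.2, 56.5 and 96.0 CPM in vehicle MOV mice. Apart from mouse 5, the vehicle MOV mice were below the sham median. Its log2 fold change was -0.05 ± 0.14 (adjusted p = 0.77), and -0.20 ± 0.08 without mouse 5 (adjusted p = 0.0507). The D + Q sham mice had 63.8, 73.2, 68.6, 53.1 and 58.9 CPM and the D + Q MOV mice 49.5, 54.4, 46.0, 53.8 and 52.3 CPM. All D + Q MOV mice were below the D + Q sham median, and of the sham mice only mouse 4 lay within the MOV range. With D + Q the gene fell by 0.27 on the log2 scale (SE 0.08, adjusted p = 0.00571), but with libraries scaled by total counts only the value was 0.092 (adjusted p = 0.297), where the median of all genes also moved, to 0.39. Relative to that median it was -0.30, beside 0.15 for Cryab. Adding the counts of Cryab and Hspb2 together, as reads on shared bases could belong to either, gave 0.87 ± 0.36 (adjusted p = 0.0653) in vehicle and 0.13 ± 0.09 (adjusted p = 0.23) in D + Q mice.

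Hspb3 (HSPL27), whose product pairs with Hspb2 in muscle, was the least abundant of the 8. The vehicle sham mice had 20.1, 19.5, 16.3, 14.4 and 18.6 CPM and the vehicle MOV mice 21.8, 22.2, 23.4, 21.4 and 30.5 CPM. The rise was small but every MOV mouse was above every sham mouse. The log2 fold change was 0.43 ± 0.11 (adjusted p = 0.00443), and 0.34 ± 0.10 without mouse 5 (adjusted p = 0.00887). The D + Q sham mice had 16.1, 17.0, 14.1, 16.6 and 15.4 CPM, all below the D + Q MOV mice at 18.4, 20.9, 19.5, 17.8 and 21.8 CPM. That difference was 0.35 ± 0.08 on the log2 scale (adjusted p = 0.00095). Hspb2 and Hspb3 thus differed in their calls with overload, although they were not tested against each other. In D + Q mice Hspb2 was called lower, though not with total counts, and Hspb3 higher. In vehicle mice only Hspb3 was called. With total counts Hspb2 was called higher there too (0.32, adjusted p = 0.0407), where the median of all genes was 0.36. Neither gene was called in the test of a difference between treatments given below.

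Hspb6 (Hsp20) is a phosphorylated chaperone of striated and smooth muscle. The vehicle sham mice had 776, 1005, 848, 701 and 672 CPM and the vehicle MOV mice 976, 1176, 977, 790.3 and 1319.8 CPM. All MOV mice were above the sham median, and the highest sham mouse lay above 3 of them. The log2 fold change of 0.40 ± 0.14 passed (adjusted p = 0.0237), but no longer without vehicle MOV mouse 5 (0.32 ± 0.13, adjusted p = 0.0535), vehicle sham mouse 4 (adjusted p = 0.0582) or vehicle sham mouse 5 (adjusted p = 0.0614). The D + Q sham mice had 863, 683, 648, 659 and 691 CPM and the D + Q MOV mice 727, 849, 653, 829 and 896 CPM. These overlapped, and the log2 fold change of 0.20 ± 0.09 did not pass (adjusted p = 0.079). It passed without D + Q MOV mouse 3 (0.27, adjusted p = 0.0146) or without D + Q sham mouse 1 (0.28, adjusted p = 0.00811).

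Hspb8 (Hsp22) is the small heat shock protein that works in a complex with Bag3. It had 476, 403, 498, 413 and 445 CPM in vehicle sham and 433, 674, 505, 468 and 1120.3 CPM in vehicle MOV mice. Mice 2, 3 and 5 were above every sham mouse, mouse 3 by little. Its log2 fold change was 0.52 ± 0.24 (adjusted p = 0.0845), and 0.24 ± 0.12 without mouse 5 (adjusted p = 0.1). With vehicle MOV mouse 1 left out it passed (0.65, adjusted p = 0.0331). With D + Q the sham mice were tight at 433, 405, 406, 398 and 375 CPM, and the MOV mice had 488, 526, 401, 466 and 504 CPM. There 4 of 5 MOV mice were above every sham mouse, and the log2 fold change of 0.28 ± 0.07 passed (adjusted p = 0.00224).

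Bag3 was at 136, 159, 152, 123 and 148 CPM in vehicle sham and at 181, 213, 163, 164 and 232 CPM in vehicle MOV mice. The groups did not overlap, and the log2 fold change was 0.41 ± 0.10 (adjusted p = 0.00302), or 0.35 ± 0.10 without mouse 5 (adjusted p = 0.00628). The D + Q sham mice had 161, 137, 127, 142 and 141 CPM and the D + Q MOV mice 150.1, 169, 147, 164 and 178 CPM. All 5 D + Q MOV mice were above the sham median, but the highest sham mouse lay inside the MOV range. With D + Q the difference was 0.23 ± 0.07 (adjusted p = 0.00795). In a fit to all 20 mice together, neither Bag3 (0.18, adjusted p = 0.0873) nor Hspb8 (0.23, adjusted p = 0.294) passed in this D + Q comparison, while Hspb8 (0.51, adjusted p = 0.0252) and Cryab (0.93, adjusted p = 0.0104) passed in the vehicle comparison.

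Between D + Q MOV and D + Q sham muscle, 6 of the 8 genes were therefore called, 5 higher and 1 lower, where 65.3% of all genes tested were called, 34.4% higher and 30.9% lower. In 3 of the 8 every MOV mouse was above every sham mouse, beside 26.5% of all genes. The median over the 8 was 0.26, and 0.02 over all genes. When libraries were scaled by total counts only, the median of all genes moved to 0.36 with vehicle and 0.39 with D + Q, and the share of called genes that were higher moved from 50.8% to 84.1% and from 52.6% to 83.5%. Relative to those medians the 8 genes ranged from -0.04 (Hspb2) to 1.92 (Hspb7) with vehicle and from -0.30 (Hspb2) to 1.43 (Hspb7) with D + Q, close to their values with TMM scaling.

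**Figure D3:**
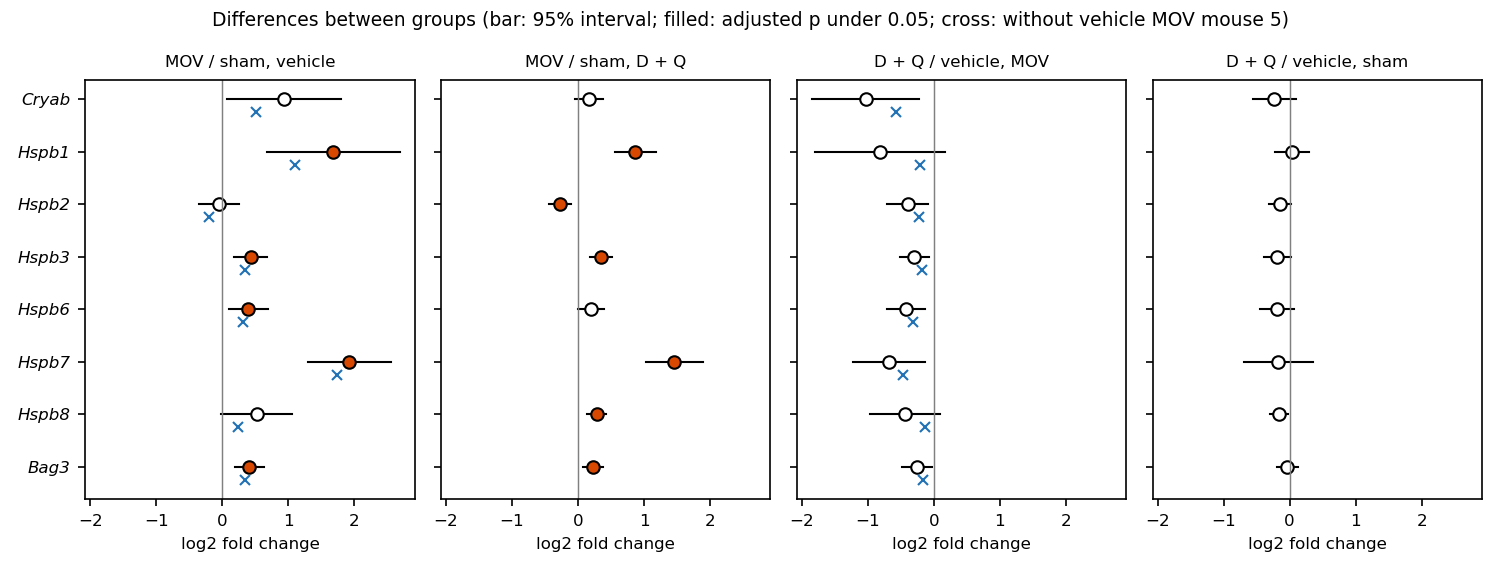
Log2 fold change of each gene in the 4 comparisons of groups, with 95% intervals, filled where the adjusted p was under 0.05. Crosses give the value without vehicle MOV mouse 5 in the comparisons that include it, and they lie nearer to 0 for Cryab and Hspb1 in both.

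Markers of fibers and of other cell types moved with overload as well. Of 7 fast fiber markers, 5 were called lower in each treatment (medians -0.88 and -0.86), and of 6 skeletal muscle fiber markers 4 were called lower with vehicle and 5 with D + Q. With total counts 5 fast fiber markers were lower and 2 higher in each treatment. In vehicle MOV against vehicle sham muscle, 6 of 6 macrophage, 6 of 6 fibroblast and 6 of 6 regenerating fiber markers were called higher, and so were 3 of 6 smooth muscle markers. The summed fibroblast level was 362 to 540.5 CPM in vehicle sham and 5404 to 10717 CPM in vehicle MOV mice, and 446 to 991 and 9380 to 13499 CPM with D + Q. The summed slow fiber level was 281 to 997 CPM in vehicle sham, 245 to 394 in D + Q sham, 611 to 1638 in vehicle MOV and 972 to 1588 CPM in D + Q MOV mice. Of 7 slow fiber markers, 4 were called higher (among them Tnni1 at 3.03 and Atp2a2 at 1.68) and 1 lower (Myl3 at -0.64) with vehicle, where without vehicle MOV mouse 5 it was 5 higher and 0 lower, and 6 were called higher with D + Q. No marker of these lists was at 0 in all mice of a group. The part of these cell types in the levels of the 8 genes was not tested.

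The comparison of D + Q with vehicle in MOV muscle asks whether the drugs moved these genes in the overloaded muscle. All 8 had a mean below that of vehicle, with log2 fold changes from -1.03 (Cryab) to -0.25 (Bag3), where 49.5% of all genes were below 0, with a median of -0.43 beside 0.00 over all genes. None passed: 0 of 8 genes were called in edgeR, as were 0.0% of all genes, with adjusted p from 0.523 to 0.614. At an unadjusted p under 0.05 there were 6 of 8, all lower, beside 8.79% of all genes in either direction and 4.61% of all genes lower. Fibroblast markers had the opposite sign, with 6 of 6 above 0 (median 0.39) and 4 at an unadjusted p under 0.05, none called, and their part in the levels of the 8 genes was not tested. The ranges of D + Q and vehicle mice overlapped in all 8 genes, while 0.591% of all genes were lower in every D + Q mouse. No D + Q mouse was above the vehicle median, except for 1 mouse in Hspb8. DESeq2, which called 8 genes in all, called none of the 8 members of this family and gave no adjusted p for Hspb3. It gave an adjusted p for only 2830 genes here, where edgeR tested 15238.

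The group with the widest spread was vehicle MOV, and the size of these differences depended in part on mouse 5, most for Hspb1 and Hspb8. As this mouse was the highest of its group in all 8 genes, leaving it out was bound to make the differences smaller. The coefficient of variation of Cryab was 63.6% in vehicle MOV and 15.5% in D + Q MOV mice, and for Hspb1 it was 77.8% and 19.3%. Without vehicle MOV mouse 5 the log2 fold change of Cryab was -0.58 ± 0.19 (adjusted p = 0.759) instead of -1.03 ± 0.36 (adjusted p = 0.523). For Hspb1 it was -0.20 ± 0.19 instead of -0.81 ± 0.44, and for Hspb8 -0.13 ± 0.13 instead of -0.44 ± 0.24. Hspb7 went from -0.67 ± 0.25 to -0.46 ± 0.21, Hspb2 from -0.39 ± 0.14 to -0.22 ± 0.08 and Hspb3 from -0.29 ± 0.10 to -0.18 ± 0.08. Hspb6 went from -0.42 ± 0.13 to -0.32 ± 0.13 and Bag3 from -0.25 ± 0.11 to -0.17 ± 0.10. All 8 stayed below 0 without this mouse, in a group that then held 4 mice.

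**Figure D4:**
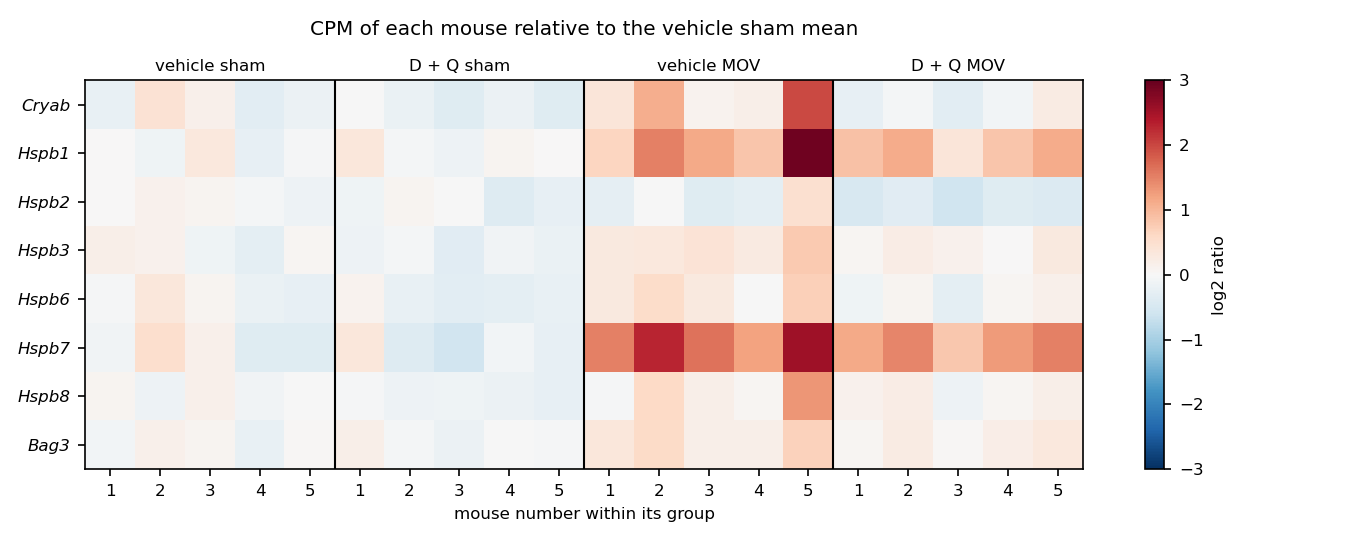
Log2 ratio of each mouse's CPM to the vehicle sham mean, with genes in rows and the 20 mice in columns by group. Hspb7 and Hspb1 are above 0 in all 10 MOV mice, Hspb2 is below 0 in all 5 D + Q MOV mice, and vehicle MOV mouse 5 has the highest value of its group in all 8 rows.

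In sham muscle no D + Q mouse was above the vehicle median for Hspb3 and Hspb8. For Cryab, Hspb2, Hspb6 and Bag3 it was 1 mouse each, for Hspb7 2 and for Hspb1 3. Of the 8 genes 7 were below 0, as were 51.4% of all genes, with log2 fold changes from -0.23 (Cryab) to 0.04 (Hspb1) and a median of -0.17 beside -0.00 over all genes. None was called, where 0.215% of all genes were, a count of 30 that ranged from 2 to 74 with 1 mouse left out. Hspb8 alone reached an unadjusted p under 0.05 (-0.16 ± 0.06, adjusted p = 0.394), a share of 1 in 8 beside 10.2% of all genes. The 6 fibroblast markers were all above 0 here too (median 0.72), 4 of them at an unadjusted p under 0.05 and none called. The 95% interval for Cryab ran from -0.56 to 0.10, and that for Hspb7 from -0.69 to 0.35. DESeq2 called none of the 8.

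Whether overload acted differently with D + Q than with vehicle was tested as the interaction over all 20 mice. All 8 values were below 0, as were 52.6% of all genes, the lowest being Hspb1 at -0.85 ± 0.47 and Cryab at -0.80 ± 0.41, and Hspb3 was nearest to 0 at -0.11 ± 0.14. In edgeR 0 of 8 were called and 0 were at an unadjusted p under 0.05, where 0.0127% and 5.71% of all genes were, and DESeq2 called none. The adjusted p ranged from 0.855 to 0.957. Without vehicle MOV mouse 5 Cryab was at -0.36 ± 0.26 and Hspb1 at -0.24 ± 0.24, and Hspb8 changed sign from -0.28 ± 0.27 to 0.021 ± 0.14. That Hspb6 was called with vehicle alone, and Hspb8 (the reverse in the fit to all 20 mice) and Hspb2 with D + Q alone, is therefore not a difference between treatments that passed a test. The comparisons share groups of mice, so agreement in their signs is not counted as a result.

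The genes around this family were taken from lists of the pathway. Of 10 genes of chaperone-assisted selective autophagy, 1 was called higher and 3 lower with overload in vehicle mice, and 0 higher and 7 lower in D + Q mice. Over all genes tested, 4482 were called higher and 4349 lower of 14601 with vehicle, and 5129 higher and 4614 lower of 14913 with D + Q. The directions of the 10 genes depended on the scaling, since with total counts 5 were called higher with vehicle, 4 higher with D + Q and 0 lower in either. With that scaling 84.1% and 83.5% of all called genes were higher. Without vehicle MOV mouse 5, 1 was called higher and 4 lower with vehicle. Flnc, the filamin that Bag3 complexes clear, rose with vehicle (3072 ± 1723 against 1440.1 ± 235 CPM, log2 fold change 1.10 ± 0.32, adjusted p = 0.0144), and it was 0.73 ± 0.18 without vehicle MOV mouse 5 (adjusted p = 0.00388). With the mouse number as a replicate block it no longer passed (0.95 ± 0.33, adjusted p = 0.0554). With D + Q it had a log2 fold change of 0.42 ± 0.19 (adjusted p = 0.0768). Stub1, the ligase of the complex (-0.25 ± 0.07), and the vacuolar sorting gene Vps18 (-0.25 ± 0.09) were called lower with vehicle, and the autophagy protein gene Map1lc3b with vehicle (-0.31) and with D + Q (-0.36), but with total counts all of these turned above 0. With D + Q Synpo2, a Z-disc partner of Bag3, and Sqstm1, the receptor p62, fell by 0.38 and by 0.38 on the log2 scale. Hspa8, the Hsc70 of the complex, had -0.08 ± 0.11 with vehicle (adjusted p = 0.529) and -0.23 ± 0.08 with D + Q (adjusted p = 0.0155). Between D + Q and vehicle 0 of the 10 genes were called in MOV muscle (9 below 0, 1 at an unadjusted p under 0.05) and 0 in sham muscle.

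Of 24 heat shock response genes, 9 were called higher and 6 lower with vehicle, and 9 higher and 13 lower with D + Q, with medians of -0.00 and -0.18. Over all genes, 4482 were called higher and 4349 lower of 14601 with vehicle, and 34.4% higher and 30.9% lower with D + Q. With total counts 16 were higher and 3 lower with vehicle, and 12 higher and 3 lower with D + Q, where 84.1% and 83.5% of all called genes were higher. Without vehicle MOV mouse 5 the counts with vehicle were 9 and 9, beside 4112 and 4041 of 14124 genes. Those with the largest rises with vehicle were Serpinh1 (3.00 ± 0.15), the collagen chaperone Hsp47, and the inducible Hsp70 genes Hspa1b (2.44 ± 0.22) and Hspa1a (1.77 ± 0.16), which are near-identical copies so that reads may be split between them. Dnajb5 (-0.72), Hspd1 (-0.62), the mitochondrial Hsp60, and Fkbp4 (-0.58), a partner of Hsp90, had the largest falls. With D + Q Serpinh1 (2.97), Hspa1b (1.98) and Dnajb1 (1.43) led the rises, and Hspd1, Fkbp4 and Dnajb5 the falls. Between D + Q and vehicle, 0 of these 24 genes were called in MOV (20 below 0, 3 at an unadjusted p under 0.05, smallest for Dnajb4 at -0.26) and 0 in sham muscle.

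**Figure D5:**
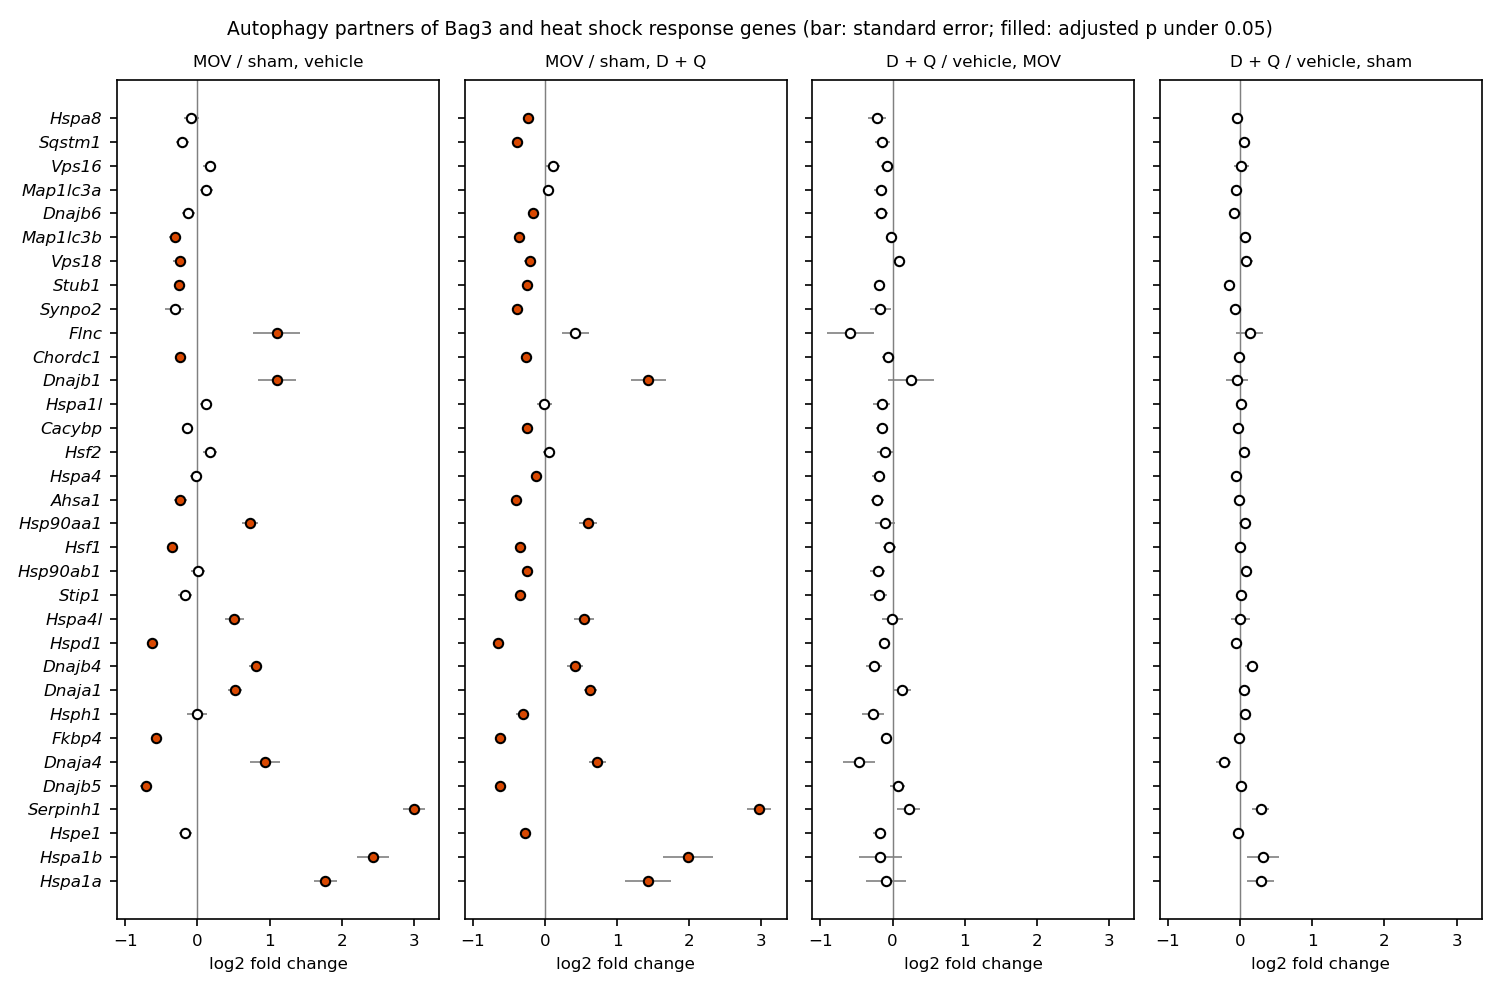
Log2 fold change with SE of the genes of chaperone-assisted selective autophagy and of the heat shock response in the 4 comparisons of groups, filled where the adjusted p was under 0.05. Serpinh1, Hspa1b and Hspa1a lie far to the right in both overload panels, most autophagy partners lie slightly left of 0 with this scaling, and no point is filled in the D + Q against vehicle panels.

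Of 10 Z-disc and intermediate filament genes that these chaperones bind, 5 were called higher and 2 lower with vehicle, and 3 higher and 5 lower with D + Q (6 and 2 with total counts). The shares over all genes are those given above beside the heat shock response genes. Vim (2.50 ± 0.17), the filament protein of fibroblasts and immature fibers, Xirp1 (1.96 ± 0.35), a filamin C partner found at sites of fiber damage, and Flnc led the rises with vehicle, and Synm (-0.89) and Ttn (-0.59) fell. Desmin (Des), the partner of Cryab, was at 4996 ± 1042 CPM in vehicle MOV and 3845 ± 194 CPM in vehicle sham mice (0.38 ± 0.12, adjusted p = 0.0138). In D + Q mice it was at 4121 ± 325 and 3862 ± 266 CPM (0.13 ± 0.07, adjusted p = 0.128). Between D + Q and vehicle 0 of the 10 were called in either surgery.

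The other genes of these families gave little to compare. Cryaa is not analysed here because the table has no row for it. Hspb9 and Odf1, known from testis, had 0 to 3 counts in every mouse. Hspb11, an intraflagellar transport gene, was at 1.97 ± 0.323 to 2.74 ± 0.195 CPM over the groups and was called higher with overload in D + Q mice (0.52 ± 0.18, adjusted p = 0.019), but not in the fit to all 20 mice (adjusted p = 0.0544). Of 5 other BAG genes, Bag2 was called higher (0.54 ± 0.15 with vehicle, 0.35 ± 0.09 with D + Q) and Bag6 lower (-0.30 ± 0.08 and -0.46 ± 0.06) with overload in both treatments, the latter turning to 0.069 with vehicle when scaled by total counts. With that scaling 3 of the 5 were called higher with vehicle and 4 with D + Q, and 0 lower in either. Of all called genes 84.1% and 83.5% were then higher. The call of Bag2 with D + Q was lost in the fit to all 20 mice (0.30, adjusted p = 0.0552).

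Across mice, deviations from the group mean of log2 CPM were compared between Cryab and 15699 other genes, as a description over 20 mice that share group membership and scaling. The genes most like Cryab outside the 8 were Mustn1 (Pearson r = 0.95, Spearman rho = 0.94), a small nuclear protein of muscle and skeleton, and Klhl40 (r = 0.94, rho = 0.91), which stabilizes thin filament proteins. Dnaja4 (r = 0.92, rho = 0.94), an Hsp40 co-chaperone, Tuba8 (r = 0.92, rho = 0.79), a tubulin, and Psmd11 (r = 0.91, rho = 0.92), a subunit of the proteasome lid, came next. In vehicle MOV mouse 5, where Cryab was highest, these 5 genes were also the highest of the group, as with Mustn1 at 1221 CPM against 271 to 579.9 in the other mice. Picking genes by likeness to Cryab favors this, so it is not a separate result. Without that mouse (19 mice) their r lay between 0.77 and 0.89, and they were no longer the 5 most alike: Mustn1 went from rank 1 to 3, Klhl40 from 2 to 17, Dnaja4 from 3 to 7, Tuba8 from 4 to 73 and Psmd11 from 5 to 14. Among the 8 genes the likeness to Cryab was r = 0.89 for Bag3, 0.87 for Hspb1, 0.86 for Hspb7, 0.85 for Hspb8, 0.83 for Hspb2, 0.82 for Hspb6 and 0.64 for Hspb3. Without the same mouse Bag3 (0.90), Hspb7 (0.87) and Hspb6 (0.84) stayed at that level, whereas Hspb1 (0.61), Hspb2 (0.59), Hspb8 (0.57) and Hspb3 (0.31) did not.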

How the data were processed

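RNA of whole plantaris muscle was sequenced from 20 mice. Per the labels, the authors aligned reads with STAR 2.7.8a to GRCm39 and quantified genes in Partek, and they deposited estimated counts per gene without normalization. The lowest sum of a row over the mice is 10, and 28.8% of the entries are fractional. All columns were used. Within groups no pair of libraries was as alike as counting error (lowest variance ratio 7.13).

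Counts were rounded and tested with edgeR 4.0.16 (quasi-likelihood, robust, TMM, R 4.3.3) after keeping genes that reach 10 counts in 5 or more of the mice compared. P-values were adjusted over all those genes by Benjamini-Hochberg, and 0.05 was the threshold. The 4 comparisons of groups used 10 mice each and the interaction all 20. The labels number the mice but name no litter or batch, and p-values measure the spread between mice. SE is the log2 fold change over the root of the F statistic. The test was tested on simulated data. Positions and transcript lengths are from GENCODE vM39.

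The genes and lists were chosen with earlier results of these data known. Named are the 8 genes in each comparison, per pathway list up to 3 called genes each way by size (otherwise the one with the smallest p), 5 genes most like Cryab, and slow fiber markers. The overload values of Des and Hspa8 were added after their values were seen. Alternatives were DESeq2 1.42.0, limma-voom (limma 3.58.1) with quality weights, RLE factors, total counts, no minimum or 50 counts, all mice in 1 fit, a replicate block, Cryab and Hspb2 summed, and each mouse left out.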

Additional observations from a re-analysis of the deposited data

Results flagged for a closer look

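Within groups of 5 mice, the gap from the highest or lowest mouse to its nearest neighbor was compared with the whole range of the group, and 3 of 32 groups (8 genes in 4 groups) passed Dixon's critical value of 0.71, which chance alone passes in about 1 of 20 groups. In vehicle MOV muscle the highest mouse, mouse 5, stood apart for Hspb1 (1649.8 CPM, gap 0.789 of the range) and for Hspb3 (30.5 CPM, gap 0.772). In D + Q sham muscle the highest mouse, mouse 1, stood apart for Hspb6 (863 CPM, gap 0.8). The Cryab level of vehicle MOV mouse 5 was further above its group in fold than those of Hspb3 and Hspb6, but mouse 2 of the same group was also high, so its gap did not pass.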

How the results depend on the processing

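The number of the 8 genes called between MOV and sham was 5 with vehicle and 6 with D + Q, and it moved past 1.5 times only with vehicle and libraries scaled by total counts, where it was 8. With that scaling 9136 of all 14601 genes were called with vehicle. Leaving out each mouse in turn gave 4 to 7 with vehicle, 6 to 7 with D + Q and 0 in the other 3 comparisons. Over all genes these fits called 7929 to 8504 with vehicle and 8850 to 9450 with D + Q. They tested 14088 to 14522 and 14360 to 14835 genes. Changes of sign under total counts were Hspb2 at 0.32 (adjusted p = 0.0407) with vehicle and 0.092 with D + Q, Bag6 at 0.069, Map1lc3b at 0.061 with vehicle and 0.0057 with D + Q, Stub1 at 0.12 and Vps18 at 0.13, where the median of all genes was also above 0 by 0.36 or 0.39. With limma-voom Hspb11 was at -0.020 in vehicle overload and Hspb1 at -0.0091 between D + Q and vehicle sham. Leaving out 1 mouse turned the sign of Hspb2 (-0.20 to 0.029) and Hspb11 (-0.024 to 0.30) in vehicle overload, of Hspb11 in D + Q against vehicle MOV (-0.068 to 0.24), of Hspb1 (-0.053 to 0.13) and Bag3 (-0.095 to 0.0064) in sham, and of Hspb8 in the interaction (-0.39 to 0.021). Cryab passed in vehicle overload with DESeq2 (adjusted p = 0.0462), a minimum of 50 counts (0.0405), all 20 mice in 1 fit (0.0104) and total counts (0.0113). The cause of these changes was not tested.

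Mice with the same number in their titles correlated between -0.15 and 0.19, with 2 of 20 pairs over 0.1, so these numbers were not taken as pairs. The labels hold a further number per mouse, shifted between sham and MOV groups, which was not checked. With the title number as a replicate block 5 and 6 of the 8 genes were called in the overload comparisons, beside 8694 of 14601 and 9411 of 14913 genes, and 0 in the others. In that fit Cryab was at 0.76 (adjusted p = 0.108) in vehicle overload, where Flnc no longer passed (adjusted p = 0.0554). Over all genes, D + Q against vehicle gave 0 calls in MOV (8 with DESeq2, 2 with the block) and 30 in sham (125 with DESeq2, 67 with no minimum, 49 with total counts, 19 with the block, 19 with all 20 mice, and 2 to 74 with 1 mouse left out, lowest without D + Q sham mouse 3 or 5, 3 without vehicle sham mouse 1, 2 or 3, 12 without D + Q sham mouse 2, 15 without vehicle sham mouse 4 and highest without vehicle sham mouse 5), and the interaction gave 2 (1 with the block).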
